A study of Rattus norvegicus with 4 samples.

Results

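Genes of DNA replication, of the passage through G1 and of mitosis were examined in the acid-secreting stomach lining of rats given octreotide LAR, the slow-release depot form of a somatostatin analogue, or its vehicle. A list of 50 genes was matched to the chip by gene symbol, and 39 of them had a probe set of their own, 52 of the 15866 probe sets in all. The other 11 were Rrm2, Ccna2, Cdk2, Bub1, Kif11, Kif23, Prc1, Nusap1, Tpx2, Hmgb2 and Cenpf; 2 further probe sets that pair a listed gene with other genes were left out. The 39 genes were 13 of DNA replication, 7 regulators of G1 and 19 of mitosis.

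All rats were female Sprague-Dawley, given as 8 weeks old in the labels, and the scraped mucosa of the gastric corpus was taken at 21 days after an overnight fast and under anaesthesia. The vehicle group is 1 Affymetrix RAE230A chip with RNA pooled from 8 rats that received the depot vehicle. The octreotide LAR group is 3 chips, pools 1 to 3, each with RNA pooled from 2 rats given 5 mg per animal. The title of the vehicle sample gives vehicle, while its source name mentions octreotide LAR; the title was followed. Pooling hides the spread between rats, and the vehicle group has no spread of its own. The median signal over all probe sets lay between 223.7 and 233.4 on the 4 chips. The acid pump subunits Atp4a and Atp4b and the chief cell products Pgc and Cblif were bright on every chip, with the lowest of their signals at 19108.9. Markers of squamous epithelium, the lining of the neighbouring forestomach, stood apart between the groups. Of the 12 on the chip, 6 were called higher, where 0.0945% of all tested probe sets were. On all pools 11 of 12 lay above the vehicle chip, where 25.0% of all tested probe sets did, and none was at 0. The exception, Krt4, was not tested and had 134.9 on the vehicle chip and 363.0, 23.0 and 14.4 on pools 1, 2 and 3. Of the 6, Lgals7 and Sprr3 had vehicle signals of 22.4 and 139.4, under the level of 144.7 required on average for testing, as had Krt5, Krt14 and Krt15 among the others; these were tested only through their treated signals. The summed signal of the 12 markers was 2027 on the vehicle chip and 6178 to 9949 on the treated chips.

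The gastric gland is renewed from dividing cells of the isthmus, which give rise to the mucous cells above and the parietal and chief cells below. A cell committed by the D-type cyclins and their kinase partner Cdk4 copies its DNA in S phase with the MCM helicase, the sliding clamp Pcna and enzymes that supply nucleotides. It then divides under Cdk1 with the B-type cyclins, and kinesins and the anaphase-promoting complex separate the chromosomes. Genes of S phase are classically bound by E2F factors. Many genes of mitosis carry the cell cycle homology region, CHR, and CCAAT boxes in their promoters.

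The promoters of the MCM genes are shown because these genes are the subunits of a single complex and were mostly above the vehicle level, as described later. In each line the 150 bases before the gene start are given 5′ to 3′ on the gene's strand, from RefSeq on GRCr8; Mcm4 had no entry in the table used. Capitals mark the E2F words TTTCCCGC, TTTCGCGC, TTTGCCGC and TTTGGCGC and the CCAAT box, each searched on both strands, so that the reverse complements are in capitals too and neighbouring words can overlap.
Mcm2, chr4:122918095-122918244, minus strand: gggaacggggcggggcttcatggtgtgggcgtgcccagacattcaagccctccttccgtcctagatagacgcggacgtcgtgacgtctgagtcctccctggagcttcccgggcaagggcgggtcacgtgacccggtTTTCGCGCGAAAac
Mcm3, chr9:30733747-30733896, minus strand: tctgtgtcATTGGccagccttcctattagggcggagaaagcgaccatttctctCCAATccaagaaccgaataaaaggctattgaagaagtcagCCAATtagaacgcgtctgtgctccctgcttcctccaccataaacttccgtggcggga
Mcm5, chr19:13488663-13488812, plus strand: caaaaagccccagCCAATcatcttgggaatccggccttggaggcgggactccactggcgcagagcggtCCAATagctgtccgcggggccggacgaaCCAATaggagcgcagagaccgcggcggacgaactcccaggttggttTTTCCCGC
Mcm6, chr13:42404353-42404502, minus strand: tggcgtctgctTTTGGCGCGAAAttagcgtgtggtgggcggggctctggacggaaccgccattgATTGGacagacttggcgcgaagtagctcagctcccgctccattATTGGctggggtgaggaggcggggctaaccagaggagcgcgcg
Mcm7, chr12:22163179-22163328, minus strand: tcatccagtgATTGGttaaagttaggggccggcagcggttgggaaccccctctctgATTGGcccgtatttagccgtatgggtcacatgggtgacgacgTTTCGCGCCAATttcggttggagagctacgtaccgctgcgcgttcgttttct

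In the 250 bases before the start, an E2F word was present in 4 of the 5 MCM promoters, all but Mcm3, and in 1.73% of all 33469 promoters of the table. Among all replication genes on the chip it was present in 5 of 12 promoters, and among the mitotic genes in 2 of 16. The CHR word TTTGAA, on either strand, was present in 9 of 16 mitotic promoters (56.2%), in 1 of 12 replication promoters and in 16.2% of all promoters. A CCAAT box was present in 13 of 16 mitotic promoters, against 34.0% of all promoters. None of the 5 promoters of G1 regulators held an E2F word or a CHR word. Kif2c, with a pair of promoter windows in the table, was counted once. A match of letters is a description of the sequence and not a measured binding site.

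The following mitotic promoters hold the CHR word, in capitals with the CCAAT boxes, in the same 150 bases. They are shown because each holds the word while their mean log2 differences from the vehicle chip, described later, were 1.15 for Mki67, -0.01 for Ccnb2 and 0.06 for Cdc20.
Mki67, chr1:199952594-199952743, minus strand: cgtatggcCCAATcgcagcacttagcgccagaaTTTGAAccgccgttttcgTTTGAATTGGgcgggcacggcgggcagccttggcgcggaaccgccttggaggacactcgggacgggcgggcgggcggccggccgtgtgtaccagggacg
Ccnb2, chr8:79981659-79981808, minus strand: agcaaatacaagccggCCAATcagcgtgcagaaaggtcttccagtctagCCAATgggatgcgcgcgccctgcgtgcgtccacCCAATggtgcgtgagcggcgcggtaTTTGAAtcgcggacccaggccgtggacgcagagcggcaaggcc
Cdc20, chr5:137255800-137255949, minus strand: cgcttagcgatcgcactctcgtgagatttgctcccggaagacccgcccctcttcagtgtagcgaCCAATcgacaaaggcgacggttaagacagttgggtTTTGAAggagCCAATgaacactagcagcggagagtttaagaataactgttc

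Signals were compared as log2(signal + 16), and every difference below is a treated value minus the vehicle value on that scale. Probe sets with a mean under the 40th percentile, a signal of about 144.7, were left out before the test, which left 9520. Of the 39 genes, 33 had at least 1 probe set tested and 39 of their 52 probe sets were tested. No member was called at an adjusted p under 0.05 by limma, where 0.105% of all tested probe sets (10 of 9520) were called, 0.0945% higher and 0.0105% lower. At an unadjusted limma p under 0.05 there were 3 member probe sets, of Mki67 (higher), Kif20a and Kif2c (both lower), where 4.57% of all tested probe sets lay under it, 2.86% higher and 1.71% lower. Of these, Kif20a passed the filter only through its vehicle signal. Each member gene is represented by its brightest probe set unless stated otherwise. In the mean, 19 of 33 members were higher, against 49.4% of all tested probe sets, and 14 lower, with a median difference of 0.03, where the median over all tested probe sets was 0.00. On all 3 treated pools 9 of 33 members lay above the vehicle chip and 6 below it, and 25.0% and 24.0% of all tested probe sets did so. These shares are near the background. The median half-width of the members' 95% intervals was 0.61, which corresponds to a 1.53-fold difference. Smaller differences of a typical member could not be told from 0 even before adjustment. Larger ones could also fail the adjusted threshold, and Mki67, at 1.15 or 2.22-fold, was not called. With 3 chips against 1, an exact permutation test has too few arrangements of the chips to reach a p under 0.05.

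**Figure D1:**
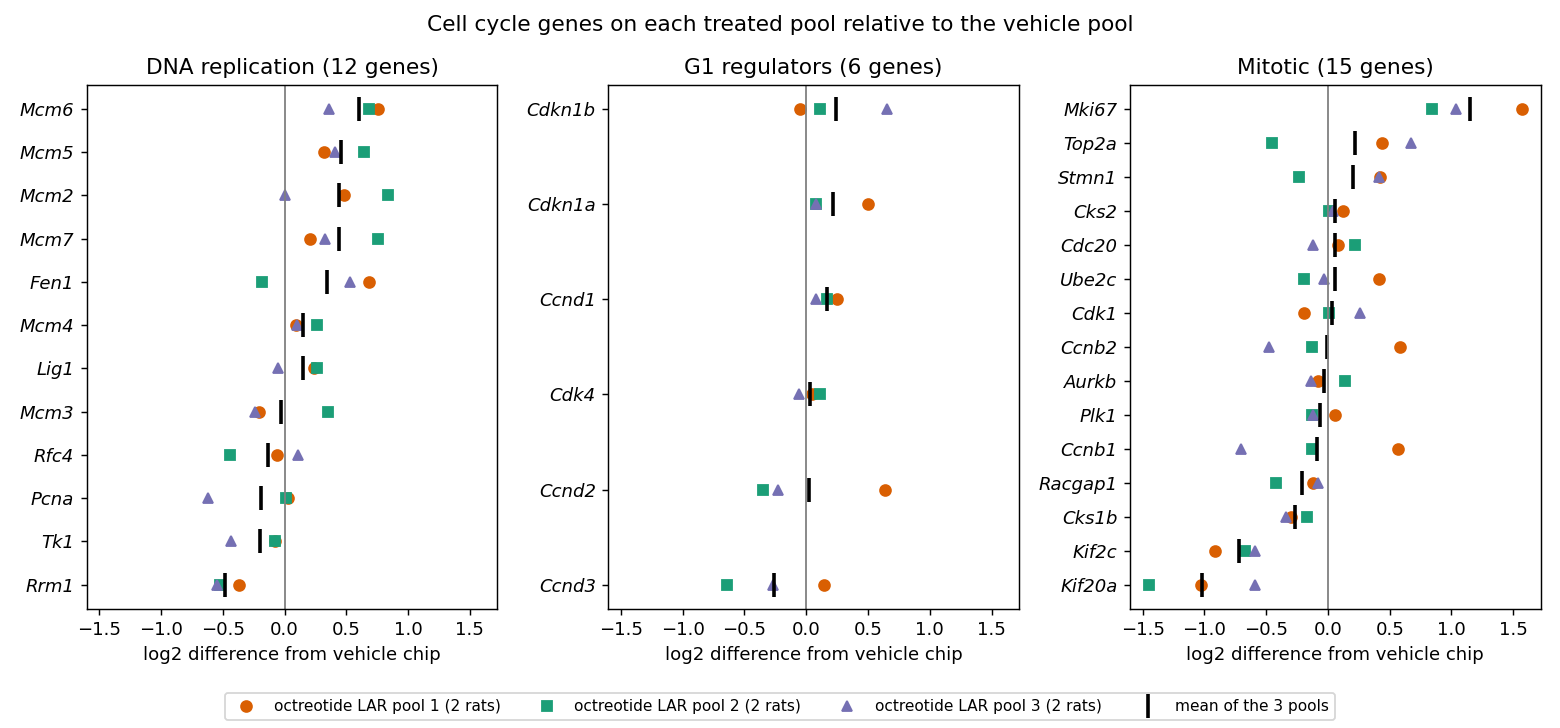
Log2 difference from the vehicle chip (horizontal axis, log2(signal + 16)) for the 33 tested members, by class, with a coloured symbol for each treated pool and a black bar for the mean of the 3 pools. Mki67, at a mean of 1.15, lies apart at the upper end, Kif20a, at -1.02, at the lower end, and most genes have pools on both sides of 0.

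The minichromosome maintenance genes Mcm2 to Mcm7 encode the hexameric helicase that is loaded on origins in G1 and unwinds DNA in S phase. Their mean differences ran from -0.03 to 0.60 with a median of 0.44. On all pools 5 of 6 were above the vehicle level, where 25.0% of all tested probe sets were. Of these 5, Mcm2 on pool 3 in effect equalled the vehicle level (242.9 against 242.5). None was called. The signal of Mcm6 was 195.8 on the vehicle chip and 341.6, 322.2 and 256.1 on pools 1, 2 and 3. All treated chips lay above the vehicle chip, pool 3 by less than the other pools. The difference was 0.60, its 95% interval ran from -0.04 to 1.24, and it did not pass (limma adjusted p = 0.9998).

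Mcm7 had 662.9 on the vehicle chip and 771.6, 1133.2 and 840.2 on the treated chips. Its difference of 0.44 had an interval from -0.07 to 0.95, and pool 2 stood well above the other pools. Mcm5 had 170.3 against 216.0, 275.1 and 230.7, a difference of 0.46 with an interval from -0.23 to 1.14. Pool 2 was again the highest and the groups did not overlap.

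Mcm2 had 242.5 against 344.5, 447.1 and 242.9, so that only pools 1 and 2 were clearly above the vehicle chip. Mcm4 had 213.5 against 227.5, 257.9 and 229.9, a small excess on every pool. Mcm3 had 210.6 against 179.7, 272.5 and 176.4, with the vehicle chip between the pools. Of the 6 genes, 5 had their highest treated value on pool 2, and all but Mcm6 followed this order. On pool 2 the median of the helicase genes was 0.66, against 0.27 on pool 1 and 0.22 on pool 3. Each pool is a single chip, so a difference between pools has no replicate check.

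**Figure D2:**
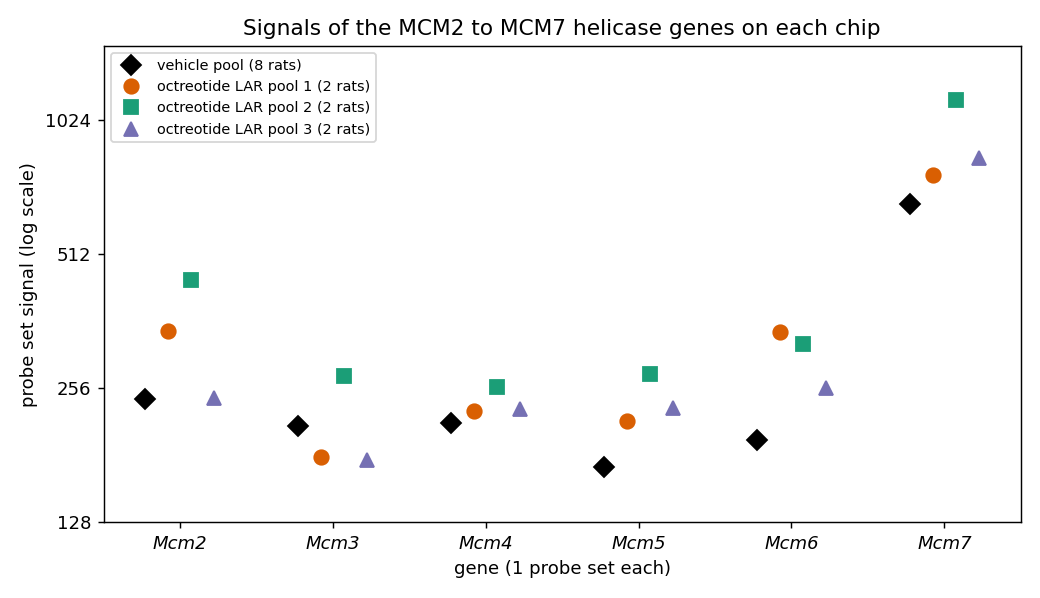
Probe set signal (vertical axis, log scale) of Mcm2 to Mcm7 on the vehicle chip (black diamonds) and on the 3 treated chips (coloured symbols). Pool 2 is the highest chip for every gene but Mcm6, and for Mcm3 the vehicle signal of 210.6 lies among the treated ones; levels of different genes are not comparable.

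The other replication members, of the fork and of nucleotide supply, went both ways in the mean, and none was called. Pcna, the sliding clamp that holds the polymerases on DNA, had 2831.0 on the vehicle chip and 2896.7, 2856.0 and 1837.0 on pools 1, 2 and 3. Only pool 3 was low, and the difference was -0.19 with an interval from -0.69 to 0.31. Fen1, the flap nuclease that trims Okazaki fragments, had 146.3 against 243.2, 127.0 and 217.7, with pool 2 below and the other pools above. Lig1, the ligase that seals those fragments, had 294.3 against 350.4, 354.5 and 284.2, and Rfc4, a subunit of the clamp loader, had 405.8 against 388.8, 295.8 and 437.8. In both cases the vehicle value lay within the treated range.

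Rrm1, the large subunit of ribonucleotide reductase, had 590.3 on the vehicle chip and 454.5, 406.7 and 399.5 on the treated chips. All treated chips lay below the vehicle chip and close together. The difference was -0.48, its interval ran from -0.99 to 0.03, and it did not pass (limma adjusted p = 0.9998). Thymidylate synthase, Tyms, which makes the thymidine nucleotide, was too dim to be tested, with 102.9 against 60.5, 60.6 and 55.5. It too was lower on every treated chip.

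Thymidine kinase, Tk1, which salvages thymidine, was read by probe sets that disagreed. The brighter had 390.2 against 368.0, 368.7 and 285.0, a difference of -0.20, and the dimmer had 209.4 against 285.0, 239.8 and 257.5, a difference of 0.29. Neither was called, and the gene has no settled direction. Over the 12 tested replication genes the median difference was 0.15, with 7 higher and 5 lower in the mean. By pool the median was 0.15, 0.26 and 0.05.

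Of a list of 51 other replication genes, 29 were on the chip and 19 were tested. None was called in either direction. In the mean 13 were higher and 6 lower, with a median difference of 0.10, where 49.4% of all tested probe sets were higher. On all pools 6 (31.6%) lay above and 4 (21.1%) below the vehicle chip, near the 25.0% and 24.0% of all tested probe sets. The largest positive differences with all pools above the vehicle chip belonged to subunits of the replicative DNA polymerases. Pold3, an accessory subunit of polymerase delta, had 179.1 against 369.3, 303.5 and 317.2, a difference of 0.82 with an unadjusted limma p of 0.012 (limma adjusted p = 0.94). All treated chips lay well above the vehicle chip. Pold1, the catalytic subunit of polymerase delta, and Pole, that of polymerase epsilon, differed by 0.65 and 0.50. Their vehicle signals of 108.4 and 133.1 lay under the filter level, so they were tested only through their treated signals. Not all subunits were higher: Pold2, also of polymerase delta, was at -0.12, with 328.6 against 260.9, 342.3 and 302.7. At the other end stood Rfc2 and Rfc1, of the clamp loader, at -0.48 and -0.30, and Rnaseh2a, the catalytic subunit of ribonuclease H2, at -0.46. A second tested Rfc1 probe set was at 0.43, with 223.2 against 336.3, 336.6 and 255.7, so Rfc1 has no settled direction. Rnaseh2a had 1049.0 against 886.3, 675.6 and 721.8.

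No regulator of G1 was called. Ccnd1, the cyclin D1 that starts the passage through G1, was read by 3 probe sets. The brightest had 2266.6 on the vehicle chip and 2707.2, 2557.3 and 2389.2 on the treated chips, all of which lay above it. The difference was 0.17 with an interval from -0.20 to 0.53. The other probe sets differed by 0.26 and 0.33, and the one at 0.26 went from 1683.2 to 2729.5 and 2193.1 on pools 1 and 2 but to 1380.2 on pool 3.

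Ccnd2 and Ccnd3, the other D-type cyclins, had pool 1 as the highest chip. Ccnd2 had 657.8 against 1035.2, 514.4 and 560.1, and Ccnd3 had 672.8 against 740.4, 425.7 and 557.2. Both went above the vehicle chip on pool 1 and below it on pools 2 and 3. Cdk4, the kinase of the D-type cyclins, had 1069.2 against 1104.6, 1156.4 and 1023.0, a difference of 0.03 with an interval from -0.38 to 0.45.

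The inhibitors of the cyclin-dependent kinases were not called. Cdkn1a, which encodes p21, had 667.2 against 950.2, 704.8 and 705.4, above the vehicle chip on every pool and mainly on pool 1. Cdkn1b, which encodes p27, had 1152.5 against 1109.1, 1244.8 and 1823.5, and pool 3 alone stood high. Second probe sets of both were too dim to be tested and were lower in the mean, at -0.74 and -0.72. Ccne1, the cyclin E1 of S phase entry, was dim, with 24.6 against 14.0, 9.9 and 60.0. The median over the 6 tested regulators was 0.10, and -0.11 when all probe sets of a gene were averaged.

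Mki67, the gene of the Ki-67 protein that coats mitotic chromosomes and marks cycling cells, had the largest difference among the members. Its signal was 189.1 on the vehicle chip and 592.7, 352.0 and 405.2 on pools 1, 2 and 3, a mean of 450 ± 126 (SD, n = 3). All treated chips lay above the vehicle chip, the lowest of them pool 2. The mean difference was 1.15, a 2.22-fold higher level, with a 95% interval from 0.50 to 1.80. Its unadjusted limma p was 0.0021, at place 44 of 9520 by p, and the adjusted p of 0.44 missed the threshold. The count of calls over all probe sets rose whenever 1 pool was left out. Mki67 was called without pool 2, its lowest pool, at a difference of 1.30. Without pool 1 or pool 3 it was not (limma adjusted p = 0.23 and 0.075). The limma adjusted p of all alternatives ran from 0.0048 to 0.95. More cycling cells and more RNA per cell cannot be told apart in such bulk samples. The squamous markers had median differences of 2.07, 1.62 and 1.44 on pools 1, 2 and 3, where Mki67 was at 1.57, 0.84 and 1.04. The part of these cells in the Mki67 value was not tested. Markers of T and B lymphocytes, which can also divide, had a summed signal of 622 on the vehicle chip and 663 to 776 on the treated chips; 1 of 10 on the chip was tested, it was not called, and 4 lay above and 2, Cd3d and Cd2, below the vehicle chip on all pools. None was at 0, and their part was not tested either.

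The other tested mitotic members did not follow Mki67 as a set. Those too dim to be tested are described later and went both ways, with Birc5 above the vehicle chip on every pool and Bub1b and Tacc3 below. The median difference of the tested ones, without Mki67, was -0.02, and 6 of the 14 were higher and 8 lower in the mean. Top2a, the topoisomerase that untangles chromosomes, had 189.6 on the vehicle chip and 262.8, 134.7 and 311.1 on the treated chips. Pool 2 lay below and the other pools above. A second Top2a probe set had 179.3 against 252.5, 185.0 and 151.8, so the probe sets disagreed on pools 2 and 3.

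Cdk1, the kinase that drives entry into mitosis, had 329.3 against 287.3, 331.9 and 397.3, a difference of 0.03 with an interval from -0.57 to 0.63. Its cyclins Ccnb1 and Ccnb2 had the same order of pools. Ccnb1 had 240.3 against 365.4, 217.8 and 141.5, and Ccnb2 had 259.8 against 396.8, 236.1 and 182.2. Both were above the vehicle chip on pool 1 and below it on pools 2 and 3, with pool 3 the lowest. A second Ccnb1 probe set had 202.1 against 204.4, 112.5 and 168.1. Cks1b and Cks2, small proteins that bind the kinases, differed by -0.27 and 0.06. Cks1b was lower on every treated chip, with 424.8 against 341.6, 374.7 and 331.4. A dim second Cks1b probe set went both ways, with 108.8 against 80.1, 175.6 and 113.5, and was not tested.

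Plk1, Aurkb, Ube2c and the brightest probe set of Cdc20 had mean differences of -0.06, -0.03, 0.06 and 0.06. Plk1, the polo-like kinase of spindle assembly, had 290.0 against 303.9, 264.3 and 264.8, and Aurkb, the kinase of the chromosomal passenger complex, had 148.5 against 139.5, 164.9 and 133.1. Aurkb was the tested member nearest to the filter level. Ube2c, the ubiquitin-conjugating enzyme of the anaphase-promoting complex, had 363.9 against 489.3, 316.1 and 355.7, high on pool 1 alone. Cdc20, the activator of that complex, was read by 5 probe sets. The brightest had 239.7 against 255.0, 282.2 and 219.4, a difference of 0.06 with an interval from -0.59 to 0.71. A second tested probe set differed by 0.14, and the dim ones left out of the test lay at -0.18, 0.80 and 0.99.

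Stmn1, stathmin, which destabilises microtubules, had 914.7 against 1230.1, 776.3 and 1223.4, with pool 2 low. Racgap1, a component of the centralspindlin complex of cytokinesis, had 270.9 against 248.8, 197.9 and 254.9 and lay below the vehicle chip on every pool. Its difference was -0.21 with an interval from -0.87 to 0.46.

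Both kinesins among the members on the chip had lower signals on every treated pool, and neither was called. Kif20a, a kinesin of the central spindle and cytokinesis, had 260.6 on the vehicle chip and 119.9, 85.4 and 167.7 on pools 1, 2 and 3. All treated chips lay below it, a mean difference of -1.02 with an interval from -1.93 to -0.12. Pools 1 and 2 lay under the filter level of 144.7, and Kif20a was tested only through its vehicle signal. Its unadjusted limma p was 0.03 and the adjusted p 0.9998. Kif2c, a kinesin that removes tubulin at kinetochores, had 317.9 against 162.2, 193.3 and 205.1, again all below. The difference was -0.72 with an interval from -1.42 to -0.03, an unadjusted limma p of 0.042 and an adjusted p of 0.9998. A dim second Kif2c probe set went both ways, with 101.2 against 17.6, 191.0 and 90.0, and was not tested.

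**Figure D3:**
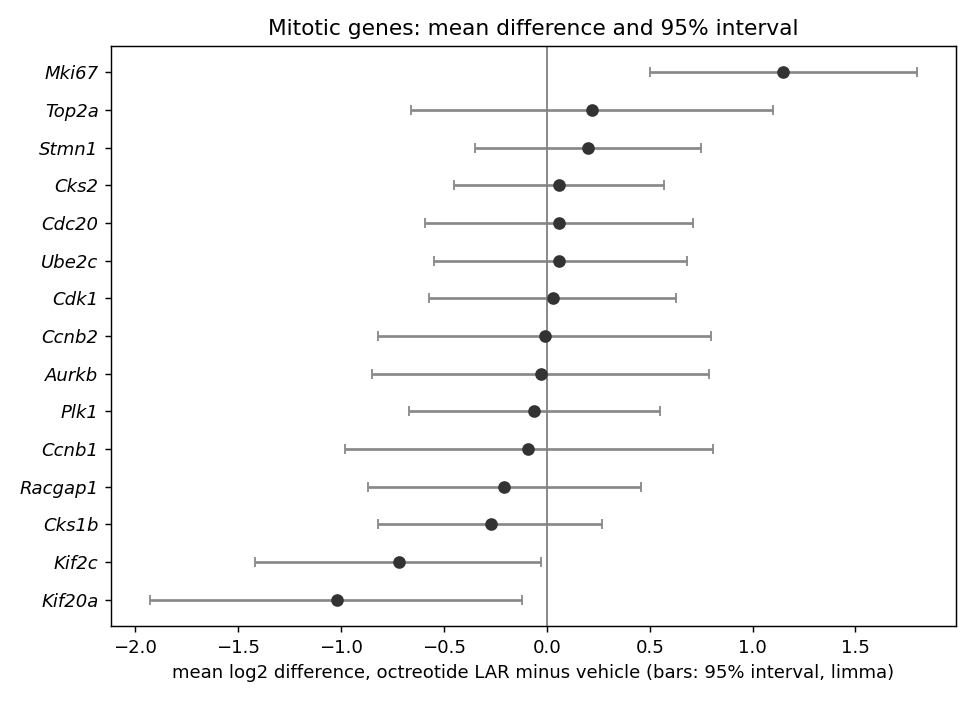
Mean log2 difference of octreotide LAR from vehicle (horizontal axis) for the 15 tested mitotic genes, with bars for the 95% interval of the limma fit. The intervals of Mki67 (0.50 to 1.80), Kif2c and Kif20a leave out 0, and those of the other genes contain it. Kif20a was tested only through its vehicle signal. No gene passed after adjustment over all probe sets.

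A group of 4 mitotic genes was too dim to be tested. Birc5, survivin of the chromosomal passenger complex, had 62.4 on the vehicle chip and 126.0, 165.4 and 165.3 on the treated chips, all above it. Of the member probe sets left out it was the nearest to the filter level. Bub1b, a kinase of the spindle checkpoint, had 65.4 against 29.0, 46.6 and 28.8, all below. Aurka, the spindle pole kinase, had 57.6 against 74.4, 98.5 and 27.4, and Tacc3, which stabilises spindle fibres, had 127.2 against 89.3, 112.5 and 90.2. Without the filter none of them was called by limma, nor was any other member.

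Of a list of 60 other mitotic genes, 35 were on the chip and 21 were tested. None was called in either direction. In the mean 7 were higher and 14 lower, with a median difference of -0.05, where 49.4% of all tested probe sets were higher. On all pools 6 (28.6%) lay above and 2 (9.52%) below, where 25.0% and 24.0% of all tested probe sets did so. By the brightest probe set of each gene, the pair below were Cdca3, which promotes entry into mitosis, and Espl1, the separase that cleaves cohesin. Cdca3 had 461.2 against 339.4, 258.5 and 257.7, a difference of -0.67 with an unadjusted limma p of 0.031. Espl1 had 667.5 against 475.9, 457.0 and 468.5, a difference of -0.50 with an unadjusted limma p of 0.044. On both the treated chips were clearly below the vehicle chip, and the limma adjusted p of both was 0.9998. Cdc26 lay above the vehicle chip on all pools by its brightest probe set, at 0.38. Another tested Cdc26 probe set lay below on all pools, with 262.2 against 141.4, 93.2 and 156.2. Its difference was -0.95 with an unadjusted limma p of 0.032, and it was tested only through its vehicle signal. A further one lay below at -0.27, so Cdc26 has no settled direction. The largest positive differences were those of Melk, a kinase of dividing cells, Cit, citron kinase of cytokinesis, and Trip13, an ATPase of the spindle checkpoint, at 0.59, 0.52 and 0.44. Melk had 138.8 against 290.0, 199.6 and 176.9, and Trip13 had 143.2 against 266.8, 169.1 and 174.6. The vehicle signals of both lay under the filter level, so they were tested only through their treated signals.

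The order of the treated pools varied between and within the lists, and no difference between lists was tested. The mitotic members had medians of 0.08, -0.13 and -0.12 on pools 1, 2 and 3, and the other mitotic genes had 0.15, -0.23 and -0.01. Of the mitotic members 7 of 15 had their highest treated value on pool 1 (46.7%) and 5 on pool 3, and of the other mitotic genes 15 of 21 had it on pool 1 (71.4%), where 34.2% of all tested probe sets did. Of the replication members 7 of 12 had their highest value on pool 2, 5 of them MCM genes, where 34.3% of all tested probe sets did. The other replication genes had it on pool 2 in 7 of 19 (36.8%) and on pool 1 in 8 of 19, with medians of 0.15, 0.16 and 0.02. The squamous markers, with a median difference of 2.07, were also highest on pool 1, and their part in the order of the pools was not tested.

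At a difference of at least 1.5-fold on a single pool, 4 of 33 members were above the vehicle chip and 2 below it on pool 1, against 4.89% and 5.77% of all tested probe sets. On pool 2 the counts were 5 above, 4 of them MCM genes and the other Mki67, and 3 below, against 5.20% and 3.70%. On pool 3 they were 3 above and 4 below, against 4.79% and 4.20%. Mki67 was the only tested member at least 1.5-fold above the vehicle chip on all pools. Kif2c and Kif20a were at least 1.5-fold below it on all pools. The share of all tested probe sets at 1.5-fold on all pools was not counted, so these genes cannot be set against the background.

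**Figure D4:**
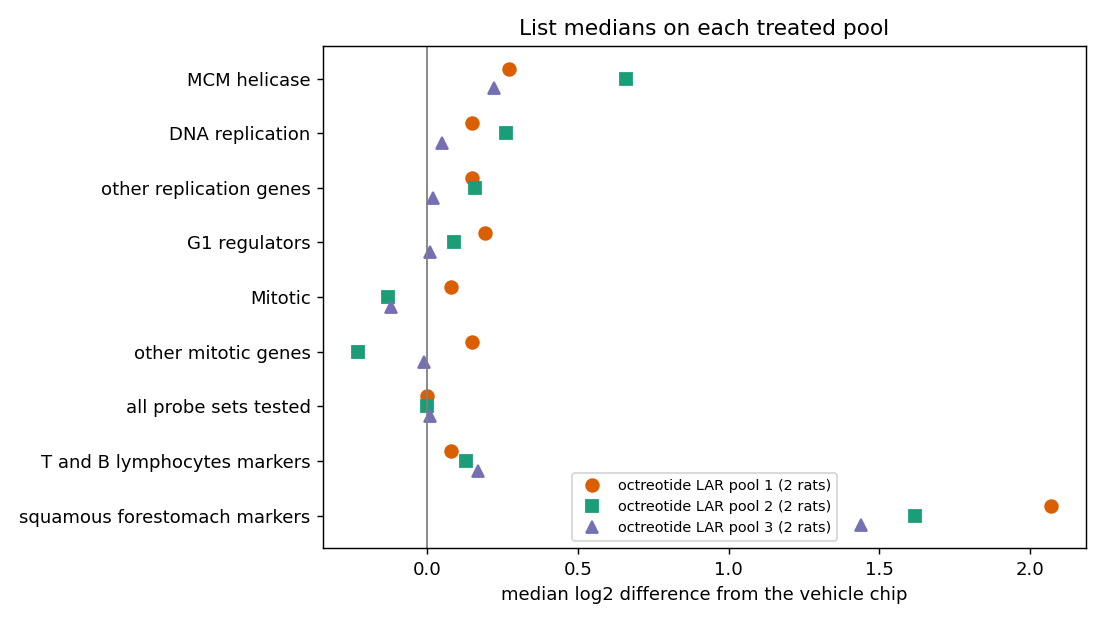
Median log2 difference from the vehicle chip (horizontal axis) of each gene list on each treated pool (coloured symbols), with all tested probe sets and 2 marker lists for comparison. The MCM genes lie at 0.22 to 0.66, the mitotic lists on both sides of 0, and the squamous markers at 1.44 to 2.07.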

How the data were processed

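Total RNA was extracted with an RNeasy kit and labelled as biotin cRNA, per the labels' protocols. The authors deposited linear intensity values, 1 for each probe set on each chip. How they were summarised and scaled is not stated in those protocols or the file headers. The file headers give 1 chip type, the same wash protocol and a different fluidics module for each chip. Probe sets were named from the platform annotation, updated by Entrez ID (12748 of 12783 with 1 gene matched; 312 named several genes and 2771 none). Signals were taken as log2(signal + 16) with no further normalization, a scale that understates the change of dim genes. The test was limma 3.58.1 under R 4.3.3 on 9520 probe sets (eBayes with trend, two-sided, Benjamini-Hochberg over all, threshold 0.05), 3 chips against 1. The vehicle chip is assumed to vary like the treated chips (2 residual and 11.5 prior degrees of freedom). The number of chips limits the precision. The script was tested on simulated data. Members and lists were chosen with earlier results of these data known. All members were named; of the other pathway lists, the genes past the threshold and the 3 largest differences in each direction with all pools alike. Alternatives changed pseudocount, filter, scaling, variance model, probe set choice and pools. Motifs were searched in RefSeq promoters of 33 of the 39 genes.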

Additional observations from a re-analysis of the deposited data

How the results depend on the processing

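No paired analysis was possible because the groups share only replicate number 1. The count of calls over all probe sets was 10, and it was 0 of 15866 without the filter, 5 with a filter at the 20th percentile, 5 after quantile normalization, 5 after centring at the 75th percentile and 1 when the trend was dropped. Leaving out 1 treated pool gave 31 to 55 calls; each such fit rests on 2 treated chips and an unchanged vehicle chip. No member was called under any alternative except Mki67 without pool 2, so the count of members called without a pool ran from 0 to 1. The median difference of the G1 regulators was 0.10, and -0.11 with all probe sets of a gene averaged. The other list medians moved by less than the spread between pools; without 1 pool they ran from 0.09 to 0.21 for replication, -0.11 to 0.03 for mitotic, 0.05 to 0.19 for G1, 0.10 to 0.12 for other replication and -0.13 to 0.02 for other mitotic genes. Of the 39 tested member probe sets, 14 changed sign under at least 1 alternative, all of them when a pool was left out, Ccnb2 also with a pseudocount of 64, and none under another scaling; Mki67, Kif20a, Kif2c, Rrm1 and the MCM genes other than Mcm3 were not among them. Dim signals limit the rest.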
